A study of Mus musculus with 7 samples.

Results

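The 10 genes described here serve the recycling of iron from old red blood cells, a task of the macrophages in the red pulp of the spleen. They were chosen by name (Slc40a1, Hmox1, Spic, Slc11a1, Slc48a1, Hfe, Fth1, Ftl1, Tfrc and Cd163). All 10 were found among the 54532 genes of the deposited table. These genes and the lists set beside them were chosen with earlier results of these data known. Counts of calls among them therefore describe the lists and do not test them. The values come from RNA sequencing of spleen cells sorted for GFP from mice that carry an IL-17 GFP reporter allele (IL-17GFP/+), an allele that both groups share. The health group of 4 libraries came from mice with no ligature. The periodontitis group of 3 libraries came from mice with 5-0 silk tied around the first molars of the lower jaw on both sides, which sets off gum inflammation and bone loss around the teeth. Age, strain background, time after ligature and the number of mice behind each library are not stated in the labels, so p-values measure the spread between libraries, which may be technical. The labels call the sorted population Th17, and the GFP gate is the only selection that the labels describe.

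Red pulp macrophages engulf worn red cells, free the heme from hemoglobin, split it with heme oxygenase and either store the iron in ferritin or send it back to the blood through ferroportin. Cells that need iron, such as dividing cells and red cell precursors, take it up from transferrin through the transferrin receptor. Iron itself controls part of this system through iron regulatory proteins, which bind a hairpin in the messenger RNA called the iron-responsive element. Bound before the coding region the protein blocks translation, as in ferritin and ferroportin, and bound after it the protein protects the RNA from decay, as in the transferrin receptor.

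Of the 10 genes, 4 held such a hairpin in their untranslated regions in a search of GENCODE M21 transcripts (GRCm38). The search asked for a C, 5 bases, the loop CAGTGN and 5 bases able to pair with the first 5, G with T allowed. The hairpins are shown because they are the sites through which iron is known to act on these 4 messages; their part in the values was not tested. Each is printed 5′ to 3′ on the strand of the gene with 6 flanking bases on either side, and capitals mark the loop.
Slc40a1, before the coding region, chr1:45925465-45925493, minus strand: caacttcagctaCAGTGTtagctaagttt
Fth1, before the coding region, chr19:9982732-9982760, plus strand: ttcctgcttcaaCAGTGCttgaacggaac
Ftl1, before the coding region, chr7:45459779-45459807, minus strand: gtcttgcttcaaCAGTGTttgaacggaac
Tfrc, after the coding region, site 1, chr16:32631219-32631247, plus strand: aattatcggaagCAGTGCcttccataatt
Tfrc, after the coding region, site 2, chr16:32631598-32631626, plus strand: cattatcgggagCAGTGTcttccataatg
Tfrc, after the coding region, site 3, chr16:32631663-32631691, plus strand: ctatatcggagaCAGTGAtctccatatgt
Tfrc, after the coding region, site 4, chr16:32631710-32631738, plus strand: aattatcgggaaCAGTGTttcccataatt

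The same pattern occurred in the 5′ untranslated region of 21 of 21864 protein-coding genes (0.096%) and in the 3′ untranslated region of 117 (0.535%), counting 1 transcript per gene. The transcript was chosen by hand for Slc40a1, Fth1, Ftl1 and Tfrc and was the longest protein-coding one for every other gene. Those genes were therefore searched by another rule than the genes behind these shares. The other 6 members had no match in either region, which says only that these letters are not in the transcript searched.

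The sequenced cells differed between the groups far beyond the iron genes. Of 12999 genes tested, 1321 (10.2%) were lower and 732 (5.63%) higher in periodontitis by a two-sided limma test of log2(FPKM + 1), with Benjamini-Hochberg adjustment across every gene tested and a threshold of 0.05. FPKM are fragment counts scaled by gene length and by a size of the library, which here was not in proportion to its recovered reads. In a gene of 1 kb, 1 read was 0.0603 FPKM in health 1, with 17891393 recovered reads. It was 0.0595 FPKM in periodontitis 3, with 14991990. Higher calls made up 35.7% of all calls, 13.1% after each library was rescaled to the same total, which shifted the median gene by -0.39 on the log2 scale, and 59.5% after features under 200 bases were left out before rescaling, which shifted it by 0.24. Against the Th17 label, Il17a was 0 to 3.76 FPKM in the health libraries and 136 to 362 FPKM in the periodontitis libraries, while the macrophage gene Csf1r ran from 383 to 1138 FPKM in health and from 33.5 to 47.0 FPKM in periodontitis. Recovered reads totalled 13513806 to 17891393 per library, and periodontitis 4 had reads in 12226 genes, the fewest of the 7. Xist, the female-specific RNA, ran from 52.1 to 72.5 FPKM in health and from 0.135 to 1.35 FPKM in periodontitis, and 4 Y-linked genes (Ddx3y, Eif2s3y, Kdm5d and Uty) had reads in each periodontitis library and none in health. Sex and periodontitis cannot be told apart for any gene here.

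In periodontitis 8 of the 10 iron genes were lower, none was higher, and 2 did not pass the threshold; among all genes tested 10.2% were lower. The scavenger receptor Cd163, the exporter Slc40a1, the transcription factor Spic, the heme-splitting enzyme Hmox1 and the metal transporter Slc11a1 were 13.4-fold to 42.8-fold lower by the ratio of group means. Hfe was 8.59-fold, the heme transporter Slc48a1 3.69-fold and the ferritin light chain Ftl1 2.83-fold lower. The ferritin heavy chain Fth1 and the transferrin receptor Tfrc did not pass. The median log2 change of the 10 was -3.25, where that of all genes tested was -0.06. All 10 passed the filter on low values, which asked for 1 FPKM or more on average across libraries. These are bulk values, so fewer macrophages among the sorted cells and less RNA per macrophage cannot be told apart.

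**Figure D1:**
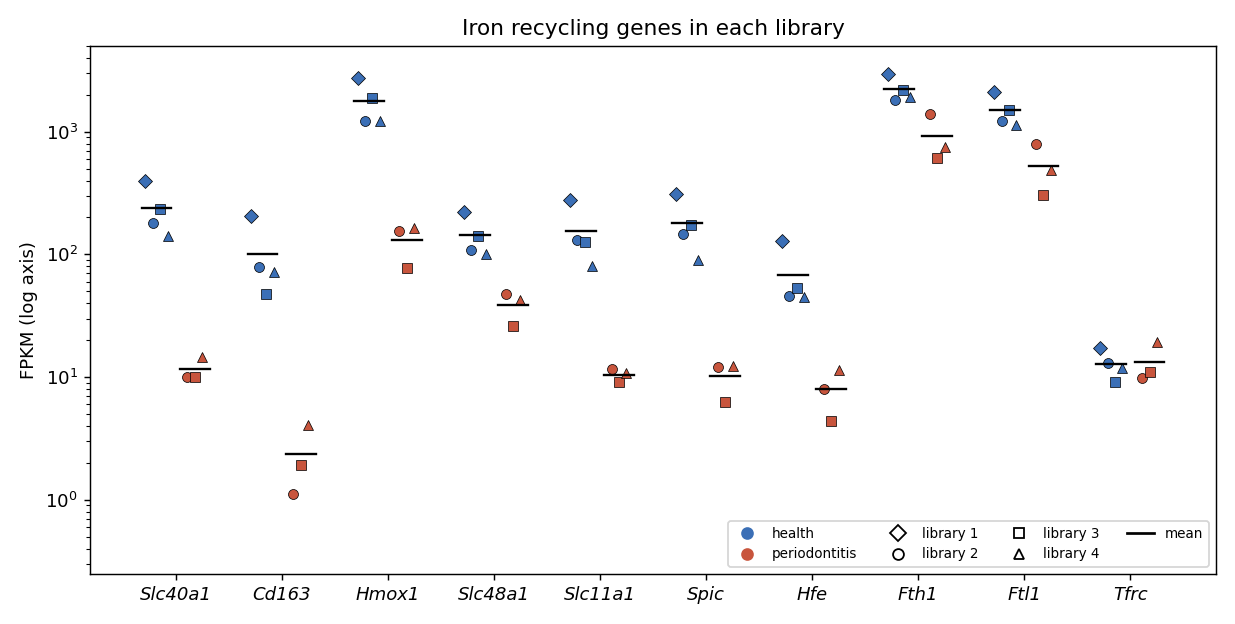
FPKM of the 10 iron genes (log axis) in each of the 4 health and 3 periodontitis libraries; each symbol is 1 library and each bar the mean of its group. The 2 groups are apart in 9 genes and overlap in Tfrc, and health library 1 is the highest of the health libraries in all 10. Of all genes tested 17.2% were apart with periodontitis lower and 12.6% with periodontitis higher.

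Uptake of hemoglobin and heme was represented by Cd163 and Slc48a1. Cd163, on chromosome 6 (124304656 to 124330527, plus strand, mm10), encodes the macrophage receptor that clears hemoglobin bound to haptoglobin. Health libraries 1 to 4 held 207, 78.5, 47.4 and 72.3 FPKM, and periodontitis libraries 2 to 4 held 1.12, 1.93 and 4.05 FPKM. Health 1 was the highest and every periodontitis library lay below every health library. The log2 change was -4.79 (SE 0.50, 95% interval -5.93 to -3.66; limma adjusted p = 0.000875), the largest fall among the 10. The ratio of group means, 42.8-fold, was 27.9-fold without health 1 and 66.4-fold without periodontitis 4. Its lowest value rested on 91 reads, in periodontitis 2.

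Slc48a1 (chromosome 15, 97778520 to 97792692, plus strand) encodes HRG1, the transporter that moves heme out of the phagolysosome. Its levels were 222, 108, 141 and 101 FPKM in health 1 to 4 and 47.7, 26.2 and 42.7 FPKM in periodontitis 2 to 4. The groups did not overlap, and health 1 was again the highest. The log2 change was -1.83 (SE 0.34, 95% interval -2.59 to -1.06; limma adjusted p = 0.00791). Its span overlaps Hdac7 on the opposite strand, at a mean of 15.5 FPKM in health and 22.6 FPKM in periodontitis. Whether counting used the strand is not stated, and reads where the pair overlaps cannot be told apart.

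Hmox1, on chromosome 8 (75093621 to 75100589, plus strand), encodes heme oxygenase 1, which opens the heme ring and releases its iron. It was among the most abundant of the 10 in health, at 2740, 1233, 1872 and 1221 FPKM in health 1 to 4, and was 157, 77.2 and 163 FPKM in periodontitis 2 to 4. Every periodontitis library was lower than every health library. The log2 change was -3.72 (SE 0.43, 95% interval -4.70 to -2.75; limma adjusted p = 0.00112). The lowest of the 7 values rested on 2273 reads.

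Slc40a1 (chromosome 1, 45908068 to 45926523, minus strand) encodes ferroportin, the only known iron exporter of mammalian cells. Its levels were 396, 180, 235 and 141 FPKM in health 1 to 4 and 9.92, 9.96 and 14.7 FPKM in periodontitis 2 to 4. The 3 periodontitis libraries were close together, within 1.48-fold of each other, while the health libraries spread over 2.82-fold. The log2 change was -4.16 (SE 0.36, 95% interval -4.98 to -3.35; limma adjusted p = 0.000548). Its hairpin before the coding region is the first of those printed above.

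Ferritin, the protein shell in which cells store iron, is built from heavy and light chains. Fth1 (chromosome 19, 9982703 to 9985092, plus strand), whose product oxidises the iron, was 2976, 1796, 2181 and 1913 FPKM in health 1 to 4 and 1394, 616 and 754 FPKM in periodontitis 2 to 4. Ftl1 (chromosome 7, 45457944 to 45459884, minus strand), whose product helps form the iron core, was 2101, 1226, 1514 and 1125 FPKM in health 1 to 4 and 791, 303 and 485 FPKM in periodontitis 2 to 4. In both genes every periodontitis library was below every health library, and periodontitis 2 was the highest of its group. Libraries that did not overlap, with periodontitis lower, were found in 17.2% of all genes tested.

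The 2 ferritin genes lay on either side of the threshold. The log2 change of Ftl1 was -1.57 (SE 0.43, 95% interval -2.55 to -0.58; limma adjusted p = 0.0420) and that of Fth1 -1.33 (SE 0.43, 95% interval -2.32 to -0.34; limma adjusted p = 0.0749). Ftl1 no longer passed when health 1, 2, 3 or 4 or periodontitis 3 or 4 was left out (limma adjusted p = 0.0973, 0.0919, 0.108, 0.0709, 0.0898 and 0.0959). Fth1 passed without periodontitis 2 (adjusted p = 0.0147). Over 17 other settings the adjusted p ran from 0.00261 to 0.206 for Ftl1 and from 0.00660 to 0.429 for Fth1, and the log2 change stayed negative in all of them. Near-identical copies can share reads with these genes: Ftl1-ps1, annotated as protein-coding, had 22.6 to 46.5 FPKM in health and 4.28 to 15.6 FPKM in periodontitis.

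Within each library Fth1 exceeded Ftl1, by 1.42-fold to 1.70-fold in health and by 1.76-fold, 2.03-fold and 1.56-fold in periodontitis 2, 3 and 4. The groups overlapped. The log2 difference of light minus heavy chain was -0.59 ± 0.12 (SD, n = 4) in health and -0.82 ± 0.19 (SD, n = 3) in periodontitis (exact permutation p = 0.114, two-sided; the smallest p that 4 against 3 libraries allow is 0.0571). Together the reads of both genes made up 0.328% to 0.500% of all recovered reads in health and 0.105% to 0.201% in periodontitis.

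Slc11a1, on chromosome 1 (74375195 to 74386062, plus strand), encodes NRAMP1, a transporter that moves divalent metals out of the phagosome. It was 280, 130, 126 and 81.1 FPKM in health 1 to 4 and 11.5, 9.17 and 10.7 FPKM in periodontitis 2 to 4. The periodontitis libraries lay within 1.26-fold of each other, the tightest of the 10 genes in that group. The log2 change was -3.62 (SE 0.38, 95% interval -4.48 to -2.75; limma adjusted p = 0.000913).

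Spic and Hfe act on the system rather than carrying iron. Spic (chromosome 10, 88674772 to 88685015, minus strand) encodes the PU.1-related transcription factor that mice need to form red pulp macrophages and that heme induces. It was 312, 147, 172 and 89.5 FPKM in health 1 to 4 and 12.1, 6.23 and 12.3 FPKM in periodontitis 2 to 4, with no overlap. Its log2 change was -3.93 (SE 0.42, 95% interval -4.89 to -2.97; limma adjusted p = 0.000950). Hfe (chromosome 13, 23702034 to 23710854, minus strand) encodes the hemochromatosis protein, which binds the transferrin receptor and takes part in the control of the iron hormone hepcidin. It was 129, 46.0, 53.3 and 45.1 FPKM in health 1 to 4 and 7.97, 4.40 and 11.5 FPKM in periodontitis 2 to 4, again with no overlap and with health 1 apart from its group. Its log2 change was -2.89 (SE 0.43, 95% interval -3.86 to -1.91; limma adjusted p = 0.00309).

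Tfrc was the exception among the 10. It lies on chromosome 16 (32608920 to 32632794, plus strand) and encodes the transferrin receptor, the main door for iron into dividing cells and red cell precursors. Its levels were 17.3, 12.95, 9.13 and 11.9 FPKM in health 1 to 4 and 9.74, 11.1 and 19.2 FPKM in periodontitis 2 to 4. The groups overlapped throughout, and the highest value was that of periodontitis 4. The log2 change was 0.03 (SE 0.29, 95% interval -0.64 to 0.69; limma adjusted p = 0.961), an interval that holds differences in either direction. The value was negative after rescaling to the same total (-0.41, where the median gene shifted by -0.39), without periodontitis 4 (-0.25) and without health 3 (-0.11), and it missed the threshold in every setting run.

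Exporter and importer transcripts can be set side by side within each library. In health 1 to 4 Slc40a1 stood 22.9-fold, 13.9-fold, 25.8-fold and 11.8-fold above Tfrc in FPKM. In periodontitis 2, 3 and 4 the ratio of Slc40a1 to Tfrc was 1.02, 0.901 and 0.766. Expressed per length, the 2 genes were at nearly the same level in every periodontitis library and far apart in every health library. No p is given for this ratio, which was chosen after the values were seen.

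**Figure D2:**
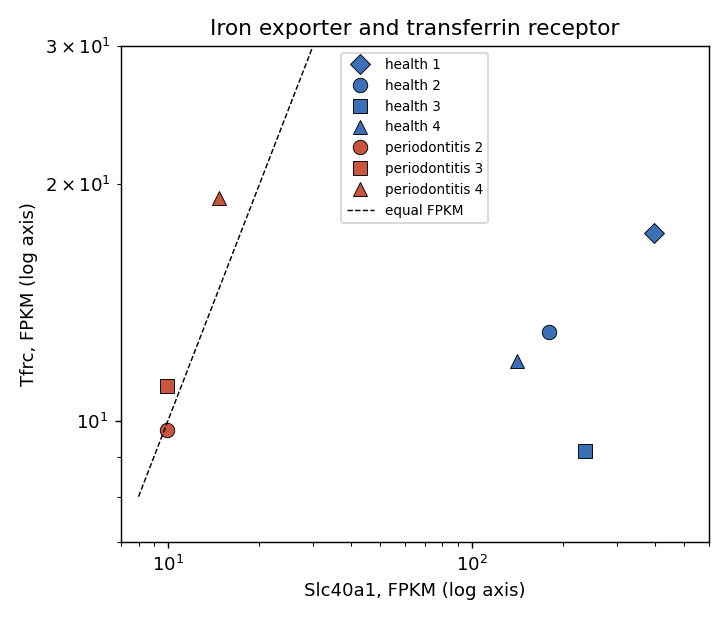
Slc40a1 (x axis) against Tfrc (y axis) in FPKM, both log axes, 1 symbol per library; the dashed line marks equal levels. The 3 periodontitis libraries sit at or near the line, with Slc40a1 between 9.92 and 14.7 FPKM, and the 4 health libraries lie to its right, between 141 and 396 FPKM, over an overlapping range of Tfrc.

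The 10 genes were next set beside 12 other markers of spleen macrophages: Vcam1, Adgre1, Mrc1, Mertk, Itgad, Csf1r, C1qa, C1qb, C1qc, Cd5l, Axl and Treml4. All 12 had reads in every library and all 12 were lower in periodontitis, where 10.2% of all genes tested were lower. Log2 changes of the 12 ran from -4.57 (Mertk) to -3.20 (C1qa), with a median of -3.84. Summed over the 12, the health libraries held 4473 to 13149 FPKM and the periodontitis libraries 369 to 831 FPKM. Vcam1, which encodes a cell adhesion protein, was 492 ± 261 FPKM (SD, n = 4) in health and 18.6 ± 1.44 FPKM (SD, n = 3) in periodontitis. Mrc1, the mannose receptor, was 236 ± 135 and 8.27 ± 0.593 FPKM, and Axl, a receptor for dying cells, was 441 ± 245 and 22.4 ± 1.56 FPKM. In none of the 12 did the libraries of the groups overlap, where 17.2% of all genes tested were apart with periodontitis lower.

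**Figure D3:**
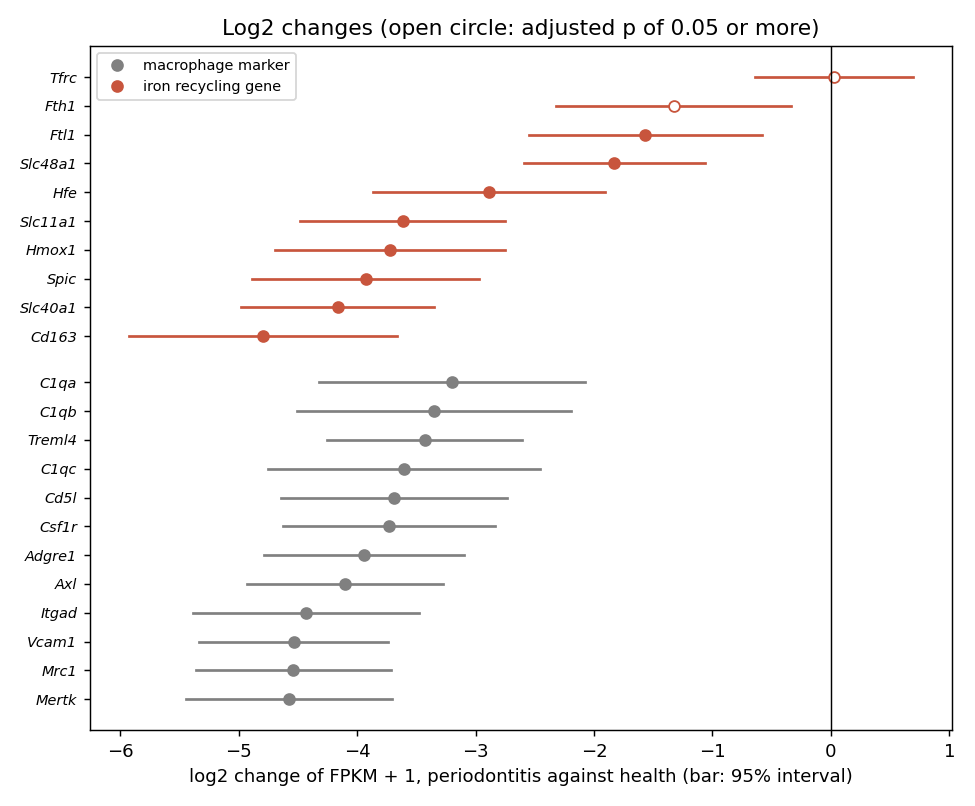
Log2 change of FPKM + 1 (x axis) of the 10 iron genes and the 12 macrophage markers, periodontitis against health, with 95% intervals from limma as bars. Filled circles passed an adjusted p of 0.05; the markers run from -4.57 to -3.20, and 5 iron genes from Cd163 to Slc11a1 lie at -3.62 or below while Hfe, Slc48a1, Ftl1, Fth1 and Tfrc lie above the range of the markers.

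Each iron gene was next measured in each library against the mean log2(FPKM + 1) of the 12 markers, a mean that was itself lower by 3.93 in periodontitis (8.64 in health and 4.71 in periodontitis). On that scale Slc40a1, Hmox1, Spic and Cd163 overlapped between the groups. The difference of periodontitis minus health was -0.24 for Slc40a1, 0.20 for Hmox1, -0.00 for Spic and -0.87 for Cd163 (exact permutation p = 0.514, 0.457, 1 and 0.114, two-sided). These values do not show that the genes moved by the same amount as the markers. Spic stood between -1.61 and -1.01 against the marker mean in the health libraries, and between -1.55 and -1.06 in the periodontitis libraries.

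Tfrc, Fth1, Ftl1, Slc48a1, Hfe and Slc11a1 did not overlap on that scale, with every periodontitis library above every health library. Their differences were 3.96, 2.60, 2.36, 2.10, 1.04 and 0.31 in that order. For each of the 6 genes the exact permutation p was 0.0571 (two-sided), the smallest that 4 against 3 libraries allow, and 0.0952 after Benjamini-Hochberg adjustment over the 10 genes, so none passed 0.05. Among all genes tested 96.7% did not overlap either, which is the background for a scale whose reference was so much lower in one group. The same limma fit on this scale called Tfrc, Fth1, Ftl1, Slc48a1 and Hfe higher and no iron gene lower, where it called 98.3% of all genes higher and 0.00769% lower. Every gene shares the error of the subtracted mean, and limma then worked with 59.5 degrees of freedom in place of 8.46 from the same 7 libraries, so its p-values on this scale are too small and are not given.

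**Figure D4:**
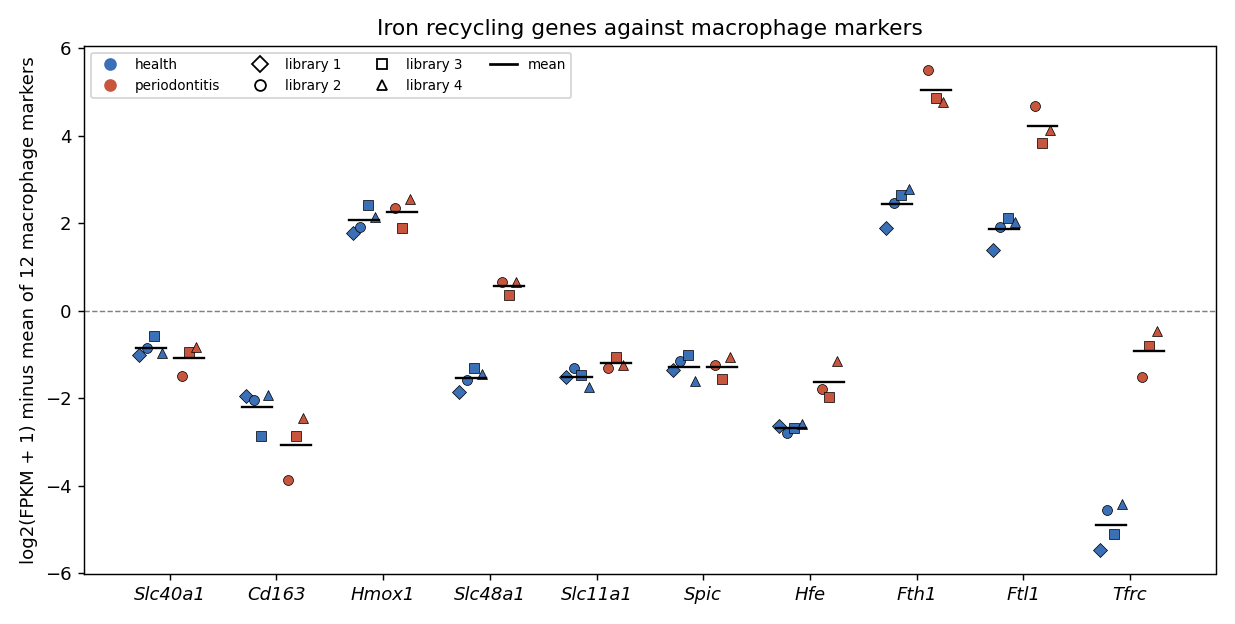
Log2(FPKM + 1) of each iron gene minus the mean of the 12 macrophage markers (y axis) in each library; bars are group means. Slc40a1, Hmox1, Spic and Cd163 overlap between health and periodontitis. Slc48a1, Hfe, Fth1, Ftl1, Tfrc and, narrowly, Slc11a1 are higher in each periodontitis library than in any health library, Tfrc by 3.96 on average. Of all genes tested 96.7% did not overlap on this scale.

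Health library 1 stood apart in these genes. It had the highest value of the health group in all 10 iron genes and in all 12 macrophage markers, and in 4422 of all 12999 genes tested. Cd163 was 3.13-fold, Hfe 2.69-fold and Slc40a1 2.14-fold above the mean of the other 3 health libraries, and Fth1 and Tfrc 1.52-fold and 1.53-fold. The summed level of T cell markers was lowest in the same library, at 259 FPKM, where health 2 to 4 had 528 to 597 FPKM. Single markers differed in this. Trac was 50.8 FPKM in health 1, with the next health library at 88.3 FPKM, while Cd4 varied little in health (28.0 ± 0.930 FPKM, SD, n = 4). The part of health 1 in the results can be read from the fit without that library. There 7 of the 10 genes were lower, with Ftl1 lost, where 906 of 12981 genes tested were lower. Slc40a1 passed in that fit (limma adjusted p = 0.000604) as in all 17 settings run (5.32e-05 to 0.00602).

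Promoter windows of RefSeq (GRCm38.p6) were at hand for 7 of the 10 genes. The 250 bases before each start were searched on both strands for GAGGAA, a core bound by PU.1 and its relatives, and for TGANNNNGC, the core bound by NRF2 and, with partners, BACH1. Slc11a1 held both, GAGGAA beginning 152 bases and TGANNNNGC 52 bases before the start, and Hfe held TGANNNNGC beginning 67 bases before it. The windows of Cd163, Ftl1, Spic, Tfrc and Fth1 held neither, and that of Spic lies within the span of the gene in the deposited table, not before its start. Window 2 of Tfrc, from 32608872 to 32609121, runs past the deposited start of that gene, 32608920. The Slc11a1 window ends at 74375202, past its deposited start of 74375195. Of all 32851 windows 23.25% held the first motif and 35.2% the second; a match describes letters, not binding. The 2 windows with a match are printed 5′ to 3′ on the strand of the gene, with the matches in capitals.
Slc11a1, chr1:74374953-74375202, plus strand: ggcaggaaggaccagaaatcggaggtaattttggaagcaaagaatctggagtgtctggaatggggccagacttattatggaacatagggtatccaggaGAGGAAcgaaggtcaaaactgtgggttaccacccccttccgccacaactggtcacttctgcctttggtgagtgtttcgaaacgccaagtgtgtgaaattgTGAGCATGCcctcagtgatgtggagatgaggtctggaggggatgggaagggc
Hfe, chr13:23710855-23711104, minus strand: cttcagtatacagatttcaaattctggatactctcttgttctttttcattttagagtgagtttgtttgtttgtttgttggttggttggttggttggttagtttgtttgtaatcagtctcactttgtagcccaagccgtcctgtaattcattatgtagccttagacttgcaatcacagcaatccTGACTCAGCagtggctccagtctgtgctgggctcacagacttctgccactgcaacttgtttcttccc

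Among the factors that act at such motifs or on macrophage identity, 7 of 14 were lower, 2 higher and 5 did not pass. The shares over all genes tested were 10.2% lower and 5.63% higher. The median log2 change of the 14 was -0.98. Pparg, a nuclear receptor needed for red pulp macrophages, averaged 30.05 ± 12.5 FPKM (SD, n = 4) in health and 1.81 ± 0.539 FPKM (SD, n = 3) in periodontitis. Irf8 and Nr1h3, which encodes the sterol receptor LXR alpha, were lower by log2 changes of -2.09 and -3.27. Also lower were Spi1 (PU.1), the heme-sensing repressor Bach1 (log2 change -1.46) and Nfe2l2, which encodes NRF2 (-1.16); Maff and Runx3 were higher.

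Receptors through which macrophages bind or sense red cells and dying cells were also lower. Of 10 tested genes of this list, which includes Lrp1, 8 were lower and none higher, where 10.2% of all genes tested were lower. The median log2 change of the 10 was -3.07. Sirpa, the receptor for the "do not eat me" signal CD47, averaged 368 ± 185 FPKM in health and 24.6 ± 1.33 FPKM in periodontitis (SD, n = 4 and 3). Timd4, Marco and Stab2, receptors for phosphatidylserine, particles and dying cells, had log2 changes of -3.91, -3.23 and -2.91. Itgb2 and Cd36 did not pass.

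Of 28 tested genes of iron and heme handling outside the 10, 6 were lower, none was higher and 22 did not pass. Among all genes tested 10.2% were lower. The median log2 change of the 28 was -0.70. The largest was Lrp1, the receptor for heme bound to hemopexin, at 240, 96.3, 79.5 and 85.7 FPKM in health 1 to 4 and 2.60, 4.90 and 9.66 FPKM in periodontitis 2 to 4. Blvra, a biliverdin reductase that acts on the product of heme oxygenase, was 40.1 ± 11.3 and 12.5 ± 3.46 FPKM (SD, n = 4 and 3). Ncoa4, the receptor that brings ferritin to the lysosome, was 20.7 ± 8.23 and 6.55 ± 2.59 FPKM. The others were Trf, which encodes transferrin, Slc46a1, a heme and folate carrier, and Hmox2, the constitutive heme oxygenase (log2 changes -2.36, -1.51 and -1.15). The iron regulatory protein genes Aco1 and Ireb2 missed the threshold, Aco1 at a log2 value of -1.02 (limma adjusted p = 0.0630) and Ireb2 at -0.79 (adjusted p = 0.0622). Hamp, which encodes hepcidin, had 4 reads in each group.

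**Figure D5:**
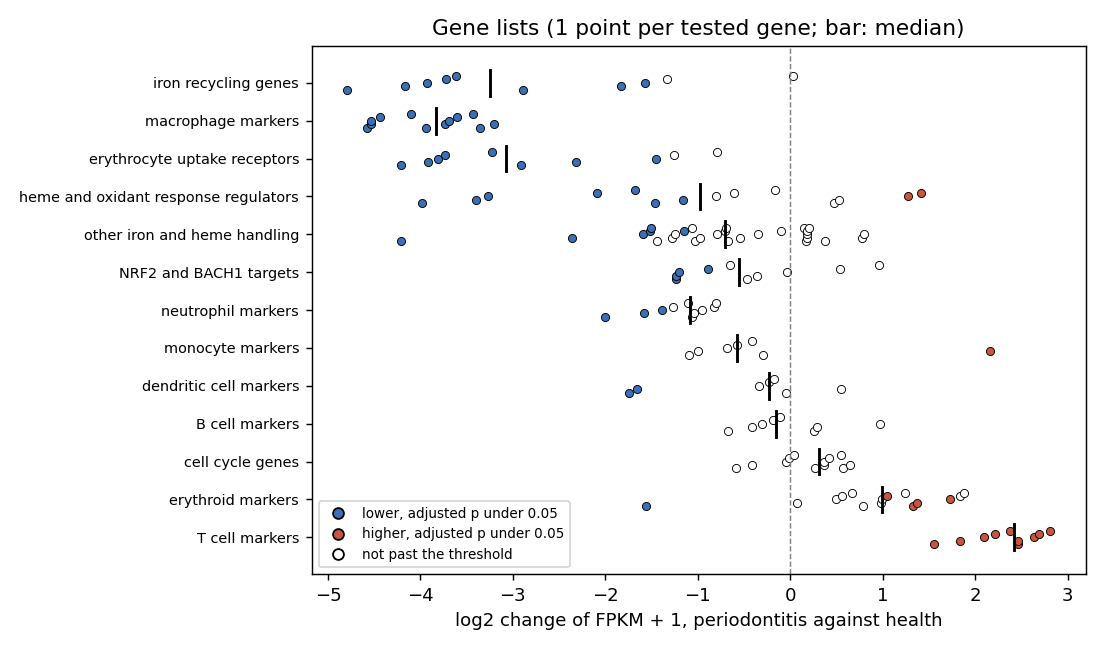
Log2 change of FPKM + 1 (x axis), periodontitis against health, for each tested gene of 13 lists (rows); bars are list medians and filled points passed an adjusted p of 0.05. The iron recycling genes, the macrophage markers and the erythrocyte uptake receptors have medians of -3.25, -3.84 and -3.07, and the T cell markers a median of 2.42.

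Markers of other cells moved with the groups as well. All 10 T cell markers were higher, where 5.63% of all genes tested were higher. The summed level of the markers was 259 to 597 FPKM in health and 1733 to 4162 FPKM in periodontitis. The median log2 change of the 10 was 2.42. Cd4 averaged 28.0 ± 0.930 FPKM in health and 124 ± 17.9 FPKM in periodontitis (SD, n = 4 and 3), Cd247 had a log2 change of 2.47, Trac of 2.64 and Cd3g of 2.81. All 5 genes of the list that marks Th17 cells were higher, among them Il17a, Il17f, Il23r and Ccr6, with log2 changes of 7.06, 5.19, 3.96 and 2.18. The part of these cells in the iron gene values was not tested.

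Erythroid genes matter for Tfrc, which red cell precursors carry. Of 15 tested erythroid markers 4 were higher, 1 lower and 10 not past the threshold. Among all genes tested 5.63% were higher and 10.2% lower. The summed level of the markers was 2455 to 4215 FPKM in health and 5562 to 17872 FPKM in periodontitis. The higher ones were Alas2, the erythroid enzyme that starts heme synthesis, at 34.5 ± 5.23 and 119 ± 31.7 FPKM (SD, n = 4 and 3), the membrane anion exchanger Slc4a1, the carbonic anhydrase Car2 and the beta globin Hbb-bt (log2 changes 1.72, 1.33, 1.05 and 1.37). The lower one was the erythropoietin receptor Epor (log2 change -1.56). The 12 cell cycle genes had limma adjusted p-values of 0.168 or more, the smallest in Mcm5 (log2 value 0.65). The part of erythroid or dividing cells in the level of Tfrc was not tested.

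Markers of other spleen cells gave fewer calls. Of 10 neutrophil markers 3 were lower (Cxcr2, Mpo and Ltf, log2 changes -2.01, -1.58 and -1.39) and 7 did not pass. All 10 had negative log2 values, from -2.01 to -0.80, with a median of -1.08. Among all genes tested 10.2% were lower and 5.63% higher. Of 7 tested monocyte markers 1 was higher, Ccr2, which T cells also carry (log2 change 2.16), and 6 did not pass. Of 7 tested dendritic cell markers 2 were lower, Itgax and Clec9a (log2 changes -1.74 and -1.66). The 8 B cell markers did not pass, and Ighm had the smallest p, at 726 ± 206 and 1464 ± 618 FPKM (SD, n = 4 and 3; limma adjusted p = 0.175).

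The profiles most like those of 3 members were sought among protein-coding genes, by the root mean square difference of centred log2(FPKM + 1) over the 7 libraries. Among the closest to Slc40a1 were Paqr9, Slc45a3, Ccr3 and Adgre1 (differences 0.19 to 0.22), with Spic the nearest other member at 0.28. Closest to Hmox1 were Fcna, Hpgd, Il18, Cd5l and Clec4n (0.23 to 0.28), with Spic at 0.24 among them. Closest to Tfrc were Zkscan17, Stt3a, Srbd1, Thap12 and Dym (0.11 to 0.15), none of which passed the test between groups, and every other iron gene was at least 0.86 away from it. Likeness of profile over 7 libraries in 2 groups mostly reflects the difference between the groups.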

How the data were processed

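The 4 health and 3 periodontitis libraries of GFP-sorted spleen cells were sequenced on an Illumina NovaSeq after TRIzol extraction, per the labels' protocols. HISAT2 2.0.5, featureCounts 1.5.0-p3, DESeq2 and the genome build mm10 are named, without role or settings, in the submitters' processing notes. The authors deposited FPKM values per gene and library with gene lengths; no source used here gives the strand setting or the annotation release. Of 54532 genes 54495 matched GENCODE M21 by identifier, and 9 of the 10 members had the same position. Multiplied by gene length, 100% of nonzero values were whole multiples of 1 read within 0.001, which gave the recovered reads.

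The tests made from these values used limma 3.58.1 in R 4.3.3, with a variance trend on log2(FPKM + 1) for genes averaging 1 FPKM or more, adjusted over 12999 genes; the same fit after subtracting each library's macrophage marker mean; exact permutation tests over 35 splits. On this scale changes of low genes are understated. The fit was tested on simulated data. Library numbers come from the sample descriptions, and the sample titles number the periodontitis libraries differently. Alternatives were another pseudocount (0.1), filters, scalings, voom on recovered reads, library weights, a replicate block and leaving out each library. Median of ratios scaling shifted the median gene by only 0.0009 on the log2 scale, so it was hardly a separate check. Named genes are the members, from each list up to 4 genes with the smallest p and all called genes where at most 6, and profile neighbours; any other gene was picked with its values known. The members and lists were chosen with earlier results of these data known. Of repeated gene names, 105 entries, the one with the largest mean was kept. Hjv and Ahsp were listed but not used here, and some genes that the rule names are not reported here.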

Additional observations from a re-analysis of the deposited data

Results flagged for a closer look

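In 66 genes the 4 health libraries were tested for 1 library far from the rest (Dixon's test), and 13 were flagged, where chance gives about 5% of groups. The genes are not independent of each other, since 8 of the 13 were flagged for a high and 3 for a low value in health 1.

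Among the iron genes Hfe was flagged, at 129 FPKM in health 1, with health 2 to 4 at 45.1 to 53.3 FPKM. The macrophage genes Vcam1, Mrc1 and Axl were 884, 438 and 808 FPKM in health 1, with the next health library at 370, 181 and 330 FPKM. Lrp1 was 240 FPKM, Timd4 38.2 FPKM, Hmox2 36.2 FPKM and Txnrd1 26.6 FPKM in the same library, each the highest of the group.

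Low values in health 1 were those of Trac (50.8 FPKM, next 88.3), Ighm (422 FPKM, next 785) and Clec10a (0.852 FPKM, next 2.17). Xcr1 at 4.44 FPKM and Ccr6 at 14.8 FPKM were high in health 4.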

How the results depend on the processing

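Over the settings other than the replicate block, 146 of 160 values of single iron genes kept their side of the threshold; 8 lost a call, all of Ftl1, and 6 gained one, all of Fth1. The count of iron genes lower in periodontitis was 7 to 9 in every setting run, where that over all genes tested ran from 657 to 2746. Against the macrophage marker mean, where limma's p-values are too small, 167 of 180 did so, 10 lost a call, all of Hfe, and 3 gained one, all of Cd163, so that the count of lower iron genes on that scale was 1 in place of 0 with a pseudocount of 0.1, with voom on recovered reads and with Csf1r alone as the scale.

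Counts over all genes moved more. With library totals made equal 414 genes were higher and 2746 lower, and leaving out features under 200 bases gave 1428 higher. Without 1 library each the counts ran from 445 to 879 higher and 871 to 1372 lower; without health 1, 2 or 3 they were 484, 445 and 482 higher, and without health 2 871 were lower. The cause was not tested. The library numbers do not mark pairs in the labels, and the sample titles number the periodontitis libraries differently. By the numbers used here, deviations of same-numbered libraries correlated at -0.05, -0.02 and 0.04. With the replicate block, on the same numbers, 321 genes were higher and 657 lower, and 7 iron genes were lower, without Ftl1. Health 1 has no periodontitis library of its number. The block therefore gave the iron genes the same log2 changes as leaving out health 1, and is not a separate check of them. The lowest value of an iron gene rested on 91 reads, and 7 libraries limit the precision.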

Other observations

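Targets of NRF2 and BACH1 other than the iron genes were lower in part. Of 10 tested members 4 were lower, none was higher and 6 did not pass, where 10.2% of all genes tested were lower. The median log2 change of the 10 was -0.56. Those lower were enzymes that supply or use NADPH: Gsr, glutathione reductase, at 100 ± 15.7 FPKM (SD, n = 4) in health and 42.1 ± 7.76 FPKM (SD, n = 3) in periodontitis, and G6pdx, Pgd and Txnrd1, with log2 changes of -1.23, -0.88 and -1.21. Hmox1 and Slc40a1, also targets of these factors in macrophages, changed by -3.72 and -4.16 in the same fit.

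Cd163 and its relative Cd163l1, a gene of gamma-delta T cells, moved in opposite directions. Cd163l1 ranged from 2.85 to 9.09 FPKM in health, and periodontitis 2 to 4 held 138, 213 and 280 FPKM (log2 change 4.90, limma adjusted p = 0.000448; chosen with its values known), where Cd163 was 47.4 to 207 FPKM in health and at most 4.05 FPKM in periodontitis. Proteins with which neutrophils withhold iron from microbes were lower or did not pass: Ltf, lactoferrin, was 1097 ± 278 and 426 ± 138 FPKM (SD, n = 4 and 3), and Lcn2, which binds bacterial iron carriers, had a log2 value of -1.06 (limma adjusted p = 0.143).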
